A study of Mus musculus with 8 samples.

Results

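Sec14l2, Sec14l4 and Patz1 are 3 genes of mouse chromosome 11 that lie between 3.2 and 4.2 Mb (GRCm38) and stand in a deposited table of 119 genes, out of which they were taken by name and position. The table itself holds only genes that the authors had selected for a difference between knockout and wild type small intestine. The values of these same libraries therefore chose the 3 genes, and their difference between the groups is given as a description with no test. RNA was sequenced from whole small intestinal tissue of male C57BL/6 mice, in 4 WT and 4 KO libraries, which the labels do not tie to separate mice. In the KO mice Vil-cre, a Cre recombinase under the Villin promoter, which is active in intestinal epithelium, deleted exons 12 to 14 of Smarcad1, a chromatin remodeling factor. Other cells of the tissue do not use that promoter and remain in the sample. The paper describes floxed lines from more than 1 targeted embryonic stem cell clone and states that 1 line served all later studies. Which line gave these libraries is not stated. No treatment is named for either group. Whether the WT mice carried floxed alleles or Cre is not given, and the age of the mice is not given in the sources used here.

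Sec14-like proteins carry a CRAL-TRIO domain, a pocket that holds a lipid molecule, and take their name from the yeast phosphatidylinositol and phosphatidylcholine transfer protein Sec14. Sec14l2, also called supernatant protein factor or tocopherol-associated protein, binds vitamin E and squalene and stimulates a step of cholesterol synthesis. Sec14l4 is a closely related protein of the same family. Patz1, also called MAZR, is a zinc-finger regulator of transcription with a BTB domain, known from the repression of the CD8 genes in developing T cells. The small intestine absorbs dietary lipid and vitamin E through its epithelium, the tissue layer in which Smarcad1 was deleted.

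All 3 genes were protein-coding in the GENCODE annotation, and their start and end in the table equalled the annotated ones. Patz1 lay on the plus strand at chromosome 11, 3288874 to 3309083. Sec14l4, also on the plus strand, lay at 4031462 to 4048024, and Sec14l2 on the minus strand at 4097039 to 4123415. The Sec14-like pair was 49.0 kb apart and pointed towards each other, whereas 722 kb separated Patz1 from Sec14l4. Between the Sec14-like pair stood 2 further protein-coding genes, Mtfp1 and Sec14l3, the latter of the same family, and between Patz1 and Sec14l4 stood 16. None of these genes was listed. Of the 27 protein-coding genes that touched the window from 3.2 to 4.2 Mb, 3 were listed, so the 3 genes were not an unbroken run. Genes that are not listed were not analysed here, and their levels are unknown.

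**Figure D1:**
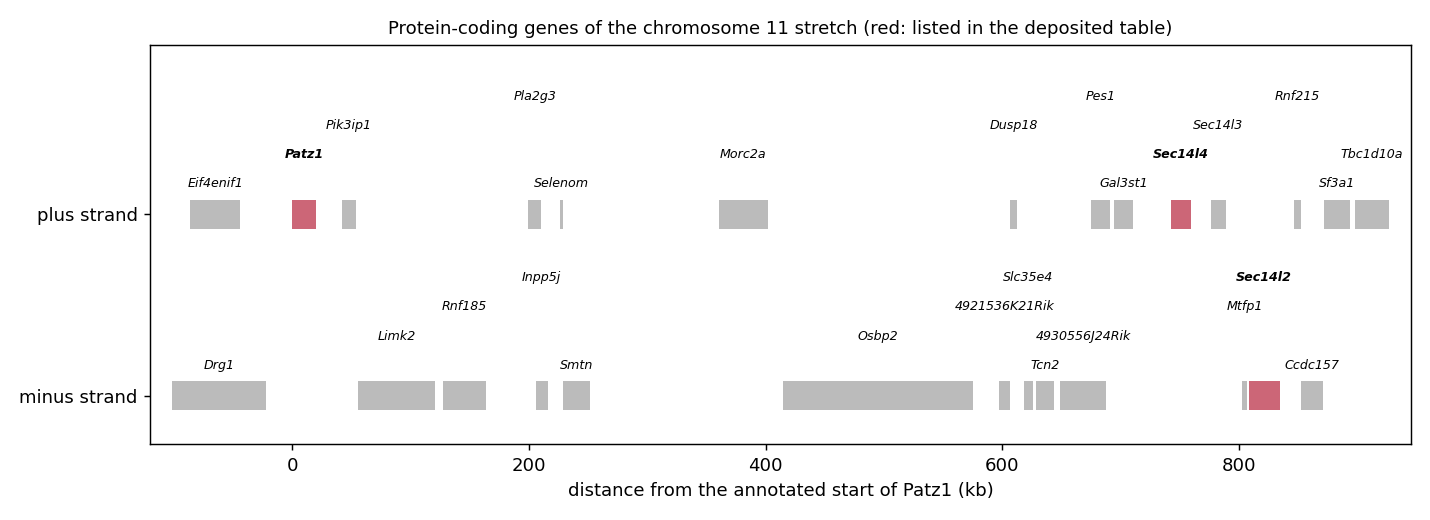
Protein-coding genes of the chromosome 11 stretch by distance in kb from the annotated start of Patz1, with 1 row per strand. Red bars are the 3 listed genes and grey bars the protein-coding genes not listed, and the Sec14-like pair sits apart from Patz1 with 16 unlisted genes in between.

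The coding sequences show how alike the family members are, which bears on whether a read can be given to the right gene. The main coding transcripts of Sec14l2 and Sec14l4 each had 12 exons and 1209 coding bases, and that of Sec14l3 had 12 exons and 1203. Over 1209 aligned bases Sec14l2 and Sec14l4 were 73.6% identical, with a longest identical run of 25 bases. Sec14l3 was 75.4% identical to Sec14l2 and 75.0% identical to Sec14l4, and the longest run it shared with Sec14l4 was 48 bases. The 60 coding bases in which Sec14l2 and Sec14l4 were most alike (54 of 60 identical) are shown 5′ to 3′ with Sec14l3, and capitals mark the 10 positions at which the 3 genes are not all the same.
Sec14l2, coding bases 855 to 914: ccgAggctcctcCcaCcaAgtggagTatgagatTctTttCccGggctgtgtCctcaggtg
Sec14l3, coding bases 858 to 917: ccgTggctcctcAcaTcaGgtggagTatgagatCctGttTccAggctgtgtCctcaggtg
Sec14l4, coding bases 855 to 914: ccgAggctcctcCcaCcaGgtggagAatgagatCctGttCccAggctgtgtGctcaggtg

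The second set is the stretch in which Sec14l3 and Sec14l4 were most alike, with 58 of 60 bases identical, while Sec14l2 shared 50 of 60 with Sec14l4 there. Capitals again mark the positions, here 12, that are not the same in all 3 genes.
Sec14l2, coding bases 980 to 1039: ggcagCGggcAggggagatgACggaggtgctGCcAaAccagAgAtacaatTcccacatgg
Sec14l3, coding bases 983 to 1042: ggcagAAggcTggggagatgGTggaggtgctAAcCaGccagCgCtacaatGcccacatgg
Sec14l4, coding bases 980 to 1039: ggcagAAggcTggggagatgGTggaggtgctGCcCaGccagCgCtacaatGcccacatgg

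No window of 50 bases in the main transcript of Sec14l2 (0 of 2582) or of Sec14l4 (0 of 2907) recurred exactly in an annotated transcript of another gene. Windows of this length thus told the main transcripts of the Sec14-like genes apart. Introns and the rest of the genome were not searched, and the read length of these libraries is not given in the sources used here. In Patz1, 553 of 3653 windows (15.1%) recurred in Gm11944 or Gm12592, genes annotated as processed transcripts that overlap its last part by 88 and 3658 bases. Gm11944 lies on the same strand and Gm12592 on the opposite strand. Whether reads were counted by strand is not stated, so reads of the shared stretch cannot be given to Patz1 with certainty. Sec14l2 contains a processed pseudogene, Gm11955, of 470 bases on the opposite strand.

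RefSeq promoter sequences (GRCm38.p6) were matched for 2 of the 3 genes, with 1 start site for Sec14l2 and 2 for Patz1. They are shown as sequence features that the choice of the genes did not use. For Sec14l2 the printed stretch is the 148 bases before the start of the main coding transcript, on the minus strand at chr11:4118832-4118979, which lies inside the annotated span of the gene because another transcript starts farther out. For Patz1 it is the 250 bases before the first RefSeq start, on the plus strand at chr11:3288881-3289130, all within an exon of a non-coding transcript of Patz1. Capitals mark matches, none of them overlapping, to the motifs searched for on both strands. These were the TATA box TATAAA, the CCAAT box spelled CCAAT, and the GC box GGGCGG.
Sec14l2: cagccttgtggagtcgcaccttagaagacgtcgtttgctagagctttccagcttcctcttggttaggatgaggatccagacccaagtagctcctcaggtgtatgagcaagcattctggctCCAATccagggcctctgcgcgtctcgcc
Patz1: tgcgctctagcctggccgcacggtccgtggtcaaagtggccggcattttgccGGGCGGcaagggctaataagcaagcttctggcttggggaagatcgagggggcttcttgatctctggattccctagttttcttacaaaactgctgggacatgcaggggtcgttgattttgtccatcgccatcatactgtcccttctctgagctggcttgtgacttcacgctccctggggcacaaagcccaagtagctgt

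Over the full 250 bases before the RefSeq start, Sec14l2 had 61.6% G and C and 17 CpG, against medians of 52.4% and 6 over 32851 mouse promoters of the same length. The first Patz1 start had 55.6% and 11 CpG, and the second had 71.2% and 28. All 250 bases of the second Patz1 stretch lay within an exon of coding transcripts of Patz1, the main one among them. Of the Sec14l2 stretch, 102 bases lay within an exon of its main coding transcript. These values thus describe exon sequence in part. GGGCGG occurred in each of these 3 stretches (in that of Sec14l2 beyond the printed part) and in 32.7% of all promoters. CCAAT occurred in that of Sec14l2 and in 33.8% of all promoters, and TATAAA in none of the 3 and in 12.4% of all. The shares over all promoters are not matched for G and C, which were above the median in all 3 stretches. The matches are letters in a window and describe no binding.

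The RPKM implied 56981718 to 70345518 mapped reads in the WT and 58634589 to 78026422 in the KO libraries, of which between 0.822% and 1.14% lay in the 119 genes. RPKM stands here for reads relative to the mapped reads and to kilobases of genomic span, introns included. Smarcad1, the deleted gene, was at 0.312, 0.337, 0.373 and 0.313 RPKM in WT libraries 1 to 4 and at 0.242, 0.209, 0.214 and 0.276 RPKM in KO libraries 1 to 4. The KO libraries were all below the WT libraries, as in 27 of the 119 listed genes (22.7%). Of the cell type markers looked up, those of the enterocyte and of the epithelium as a whole were not listed, so the labelled tissue could be checked by few of its markers, mainly Paneth cell products, of which 6 of 8 were listed.

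Sec14l2 was the most highly expressed of the 3 genes. Its RPKM was 0.918, 1.07, 1.33 and 0.715 in WT libraries 1 to 4. In KO libraries 1 to 4 it was 1.93, 1.66, 2.05 and 1.58. All 4 KO libraries lay above all 4 WT libraries, and the lowest KO library was 1.19 times the highest WT library. WT averaged 1.01 ± 0.261 RPKM (SD, n = 4). KO averaged 1.81 ± 0.219 RPKM (SD, n = 4), a ratio of 1.79. WT varied more than KO, since the highest WT library, WT 3, was 1.87 times the lowest, WT 4, and the highest KO library was 1.29 times the lowest. Between 1327 and 2226 reads stood behind each WT value and between 2573 and 3765 behind each KO value. At that number of reads counting alone gives a coefficient of variation of 2.47% in WT, and the one observed was 25.9%.

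Patz1 was the steadiest of the 3 genes. In WT libraries 1 to 4 its RPKM was 0.492, 0.632, 0.594 and 0.552. In KO libraries 1 to 4 it was 0.941, 0.834, 0.769 and 0.970. The groups did not overlap, and the lowest KO library was 1.22 times the highest WT library. The WT mean was 0.568 ± 0.0600 RPKM (SD, n = 4). The KO mean was 0.878 ± 0.0935 RPKM (SD, n = 4), which is a ratio of 1.55 and the smallest of the 3. The coefficient of variation was 10.6% in both groups, against 3.74% in WT and 2.87% in KO from counting alone. The values rested on 567 to 785 reads in WT and on 947 to 1530 reads in KO.

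Sec14l4 was nearly silent in WT. WT libraries 1 to 4 held 0, 2, 2 and 2 reads, or 0, 0.00208, 0.00191 and 0.00172 RPKM. The exact 95% Poisson interval of the 0 in WT library 1 reached 3.69 reads, or 0.00391 RPKM. For 2 reads, as in WT libraries 2, 3 and 4, the interval ran from 0.242 to 7.22 reads. With so few reads the depth does not show whether the gene was transcribed in WT at all. KO libraries 1 to 4 held 17, 97, 82 and 130 reads, or 0.0139, 0.0999, 0.0813 and 0.101 RPKM. All 4 KO libraries lay above the 4 WT libraries, but KO library 1 stood far below the other KO libraries. Its exact 95% Poisson interval, 9.90 to 27.2 reads, did not reach that of KO library 3, 65.2 to 102 reads, the next lowest, although KO library 1 was the deeper of these libraries. Such intervals cover counting error only.

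**Figure D2:**
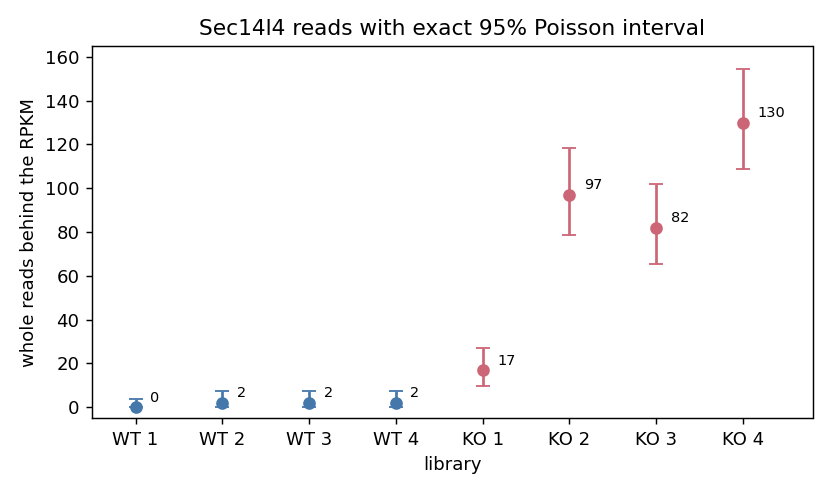
Reads of Sec14l4 in each of the 8 libraries (points, blue WT and red KO) with the exact 95% Poisson interval as bars. WT libraries hold 0 to 2 reads, KO library 1 holds 17 and the other KO libraries hold 82 to 130.

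Summed over the libraries, 6 WT reads stood against 326 KO reads of Sec14l4. Relative to the mapped reads this is a ratio of 49.8, with an exact 95% interval from counting of 22.6 to 137, which leaves out the spread between samples. The mean in KO was 0.0739 ± 0.0410 RPKM (SD, n = 4), with a coefficient of variation of 55.5% against 11.1% from counting. By mean RPKM in KO, Sec14l4 had rank 114 of the 119 listed genes. By mean RPKM over all libraries it had rank 117, where Sec14l2 had rank 53 and Patz1 rank 70. By the ratio of KO to WT, Sec14l4 had rank 3 of the 119, counting AC125117.1 with a WT mean of 0 as the first, Sec14l2 had rank 37 and Patz1 rank 49.

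**Figure D3:**
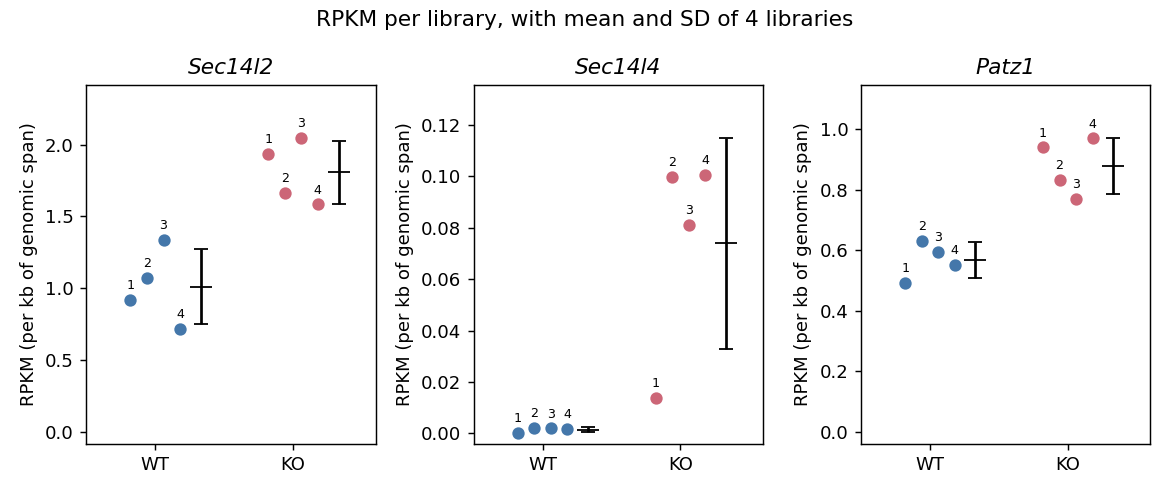
RPKM per kilobase of genomic span (linear axis) of Sec14l2, Sec14l4 and Patz1 in the 4 WT (blue) and 4 KO (red) libraries, labelled by replicate number, with mean and SD as black bars. The groups are apart in each panel, and KO library 1 is low in Sec14l4 but not in Sec14l2 or Patz1.

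The 3 genes were all higher in KO, with no overlap between the groups, as were 58 of the 119 listed genes (48.7%). The listed genes had been selected on this difference, so nothing can be read from the count. The median ratio of KO to WT was 1.79 over the 3 genes, 0.943 over the 119 genes and 1.97 over the 59 genes with a higher mean in KO. On the scale of log2(RPKM + 0.1), the KO mean exceeded the WT mean by 0.80 for Sec14l2, 0.74 for Sec14l4 and 0.55 for Patz1. On this scale the SD of Sec14l2 was 0.34 in WT and 0.17 in KO, and that of Patz1 was 0.13 and 0.14. The difference of Sec14l4 on this scale is set by the 0.1 added, which exceeds nearly all of its values, and it was 2.65 with 0.01 added and 0.10 with 1 added. Scaled to the summed RPKM of all other listed genes in place of the mapped reads, the difference of Patz1 was 0.92. That sum was itself lower in KO, at 3506 to 4444 RPKM against 4252 to 5828 RPKM in WT.

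**Figure D4:**
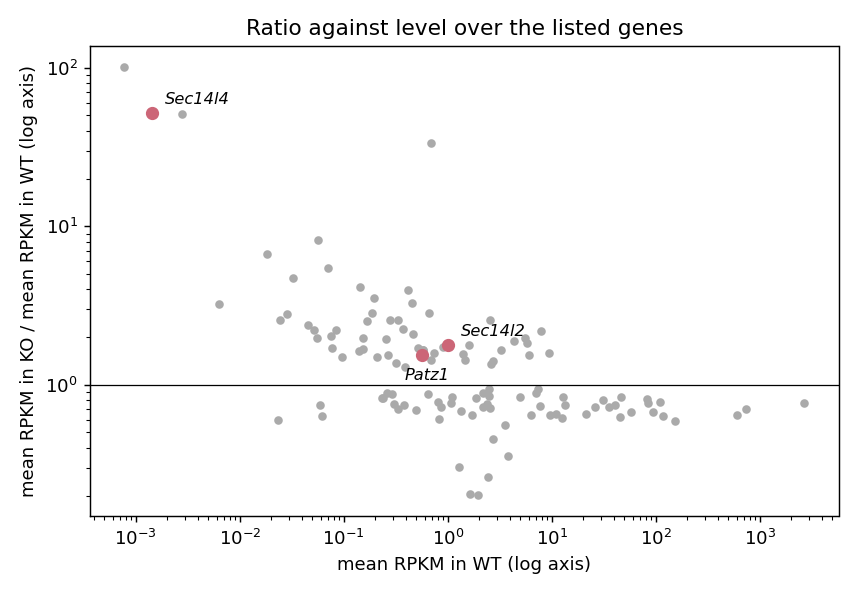
Ratio of mean RPKM in KO to mean RPKM in WT against mean RPKM in WT, both on log axes, for each of the listed genes with a WT mean above 0 (1 gene is not drawn), and the 3 genes in red. Sec14l4 stands at the top left with a ratio of 51.8, and Sec14l2 and Patz1 lie among the genes with ratios of 1.79 and 1.55.

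With any 1 library left out, the ratio of means for Sec14l2 was lowest, at 1.63, without WT library 4 and highest without WT library 3. For Patz1 it stayed between 1.48 and 1.61. For Sec14l4 it ranged from 38.9 without WT library 1 to 65.9 without KO library 1.

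Within the groups, the order of the libraries was shared in part. In WT, libraries 1 and 4 were the lowest for both Patz1 and Sec14l2. Sec14l4 had 2 reads in each of WT libraries 2, 3 and 4. Its order among these is set by their depth alone and is not compared. In KO the orders differed. KO library 1 was the lowest KO library for Sec14l4, yet the second highest for both Sec14l2 and Patz1. KO library 4 was the lowest for Sec14l2 and the highest for Sec14l4 and Patz1. Among the 59 listed genes with a higher mean in KO, KO library 1 was the lowest KO library in 16, as were KO libraries 2 and 4 in 16 each.

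Levels of the genes can be compared within a library per kilobase of span. Sec14l2 had a higher RPKM than Patz1 in all 8 libraries, by a factor of 1.30 to 2.66. The factor was 1.78 ± 0.395 in WT and 2.09 ± 0.426 in KO (SD, n = 4 each), so it differed between the groups by less than the spread between samples. The factor depends on the length used. Merged exons made up 13.3% of the span of Sec14l2, 21.1% of that of Sec14l4 and 29.2% of that of Patz1, and the methods describe counting over exons although the RPKM is per span. If all counted reads lay in exons, the median factor over the 8 libraries would be 4.24 in place of 1.93. Sec14l2 had from 417 to 699 times the RPKM of Sec14l4 in the 3 WT libraries where the latter had 2 reads, and from 15.7 to 139 times in KO, where the highest factor was that of KO library 1.

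To describe which listed genes had a like pattern, the RPKM of each gene was written as shares of its sum over the 8 libraries, and genes were compared by the percentage of that sum that would have to move to make 2 profiles equal. The nearest genes to Sec14l2 were Cyp4f16 (3.69%), Fam108a (4.21%) and 2010106G01Rik (4.30%). The nearest to Patz1 were Abca1 (3.77%), Fam161a (4.02%) and Mbd1 (4.03%). Genes near Sec14l4 lay farther off, with Klrb1c at 21.4% and AC125117.1 at 24.8%. Sec14l2 and Patz1 differed from each other by 7.68%, and Patz1 stood at place 25 among the genes nearest to Sec14l2. Sec14l4 differed from Sec14l2 by 46.5% and from Patz1 by 49.0%. The median distance to the other listed genes was 18.8% for Sec14l2, 15.9% for Patz1 and 57.2% for Sec14l4. Sec14l2 and Patz1 were thus nearer to each other than to the median listed gene. The distances of Sec14l4 to both were below its own median but above the medians of Sec14l2 and Patz1. The profiles of the 3 genes were thus not the nearest to each other, and of the genes named here as near in profile Fam161a alone lay on chromosome 11. The profiles contain the difference between the groups for which all these genes were selected.

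**Figure D5:**
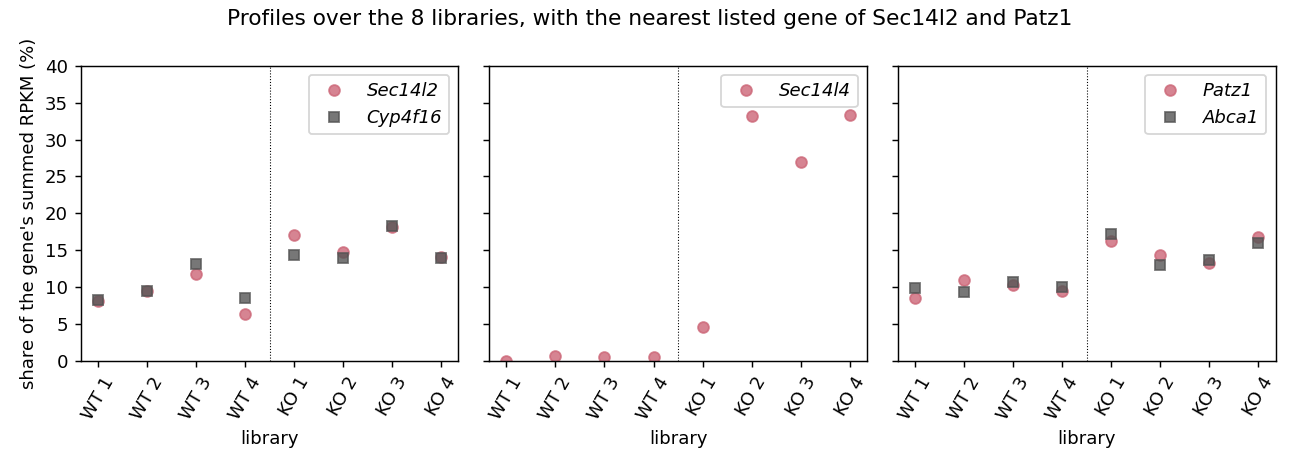
Share of the summed RPKM of a gene (percent, over 8 libraries) in each library for Sec14l2, Sec14l4 and Patz1 (circles), with Cyp4f16 beside Sec14l2 and Abca1 beside Patz1 (squares). Sec14l4 holds nearly all of its RPKM in KO, where library 1 holds 4.61% and library 4 holds 33.4%.

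Lists of related genes that included the 3 genes were looked up. Of 54 genes in these lists 4 were listed, and 3 of the 4 were the 3 genes themselves. The share of listed genes among all genes is not known here. The counts below therefore do not show whether the unlisted genes differed between the groups. Of 16 Sec14-like and CRAL-TRIO genes, Sec14l2 and Sec14l4 were listed. The rest, among them Sec14l1, Sec14l3 and Sec14l5 and the vitamin E transfer gene Ttpa, were not listed and were not analysed here. None of 13 genes of squalene and cholesterol synthesis was listed. Of 12 BTB zinc-finger regulators, Patz1 alone was listed. Among 9 genes of intestinal lipid uptake and vitamin E handling, Abca1 was listed, which encodes an exporter of cellular cholesterol. Abca1 was at 0.208, 0.195, 0.224 and 0.209 RPKM in WT libraries 1 to 4. In KO libraries 1 to 4 it was at 0.359, 0.271, 0.287 and 0.334 RPKM. It was higher in all 4 KO libraries, by a ratio of means of 1.49, close to that of Patz1.

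Beyond the window, the nearest listed gene on chromosome 11 was Camk2b, a calmodulin-dependent kinase subunit, which began 1.85 Mb after Sec14l2. It was lower in every KO library, with 0.659 to 3.23 RPKM in WT and 0.234 to 0.547 RPKM in KO. No other listed gene was within 5 Mb of the 3 genes, and the next, Fam161a, was 18.9 Mb away.

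The listed cell type markers had lower means in KO, the opposite of the 3 genes. The 6 listed Paneth cell products had a lower mean in KO, 4 of them with no overlap between the groups, against 22.7% of all listed genes that were lower in this way, and their summed RPKM was 2991 to 4153 in WT and 2352 to 3297 in KO. Both listed pancreatic genes had lower means too, Clps with overlap between the groups and Pnliprp2 with none. Their summed RPKM was 26.2 to 37.1 in WT and 20.1 to 27.0 in KO, with overlap. Ascl2, the listed stem cell marker, was at 1.56 to 3.30 RPKM in WT and 1.66 to 1.96 RPKM in KO, with overlap. In whole tissue, more cells of a type and more RNA per cell cannot be told apart, and the part of the cell makeup in the values of Sec14l2, Sec14l4 and Patz1 was not tested.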

How the data were processed

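RNA of whole small intestine was sequenced in 4 WT and 4 KO libraries. The authors trimmed reads with Trim Galore 0.4.1, mapped them to GRCm38 with HISAT2 2.0.1 and quantified uniquely mapped reads over exons of merged transcripts, per the methods, in SeqMonk 1.42.0. The authors deposited RPKM per library for the 119 genes below an FDR of 0.05 in DESeq2. The columns the authors deposited for the group means and the FDR, an adjusted p-value, were not used. Genes outside this selection were not analysed here.

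The depth of each library was the smallest number of mapped reads at which RPKM times genomic span turned into whole reads, within 0.05, which 939 of 939 values above 0 did, and 8 of 8 planted depths were recovered in libraries simulated over the 119 genes. Groups were taken from the labels, which give no batch. Values are mean ± SD. No test between the groups was run, since the same contrast chose the genes. The labels do not say that libraries came from separate mice, so the SD may be technical. The genes, gene lists and measures were chosen with earlier results of these data known. Genes named are the 3 genes, Smarcad1, listed genes of the lists, listed genes of chromosome 11 within 5 Mb and, for each gene, the 3 nearest in profile, 1 of which is not reported here. Fam161a, next on chromosome 11, and overlapping or unlisted neighbours are named by position. Annotation was GENCODE mouse release 21. Python 3.11.15, pandas 2.3.3, scipy 1.17.1 and matplotlib 3.10.9 were used. Alternatives were other pseudocounts, medians, another scaling, a minimum mean RPKM, exon length, another distance and leaving out each library.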

Additional observations from a re-analysis of the deposited data

How the results depend on the processing

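Of 36 recalculations of the 3 log2 differences, 30 moved by less than the spread between samples, 6 moved by more and 0 changed sign. Every KO value exceeded every WT value in the 3 genes. A change of pseudocount, the median or leaving out a library therefore could not change the sign, and only the scaling could. Most of the 36 left out 1 of 4 libraries, which cannot move a mean by that spread, so they say nothing on robustness. The 6 that moved were all changes of pseudocount or of scaling. With a pseudocount of 1 the differences were 0.49 for Sec14l2, 0.10 for Sec14l4 and 0.26 for Patz1, and with a pseudocount of 0.01 that of Sec14l4 was 2.65, because the pseudocount outweighs low RPKM. Scaling to the summed RPKM of the other listed genes gave 1.19 for Sec14l2 and 0.92 for Patz1. The mean of that sum was lower in KO, at 3887 RPKM against 5193 in WT, although 59 of the 119 listed genes had a higher mean in KO. Defa24 and Defa22, its largest terms, had lower KO means, at 2073 against 2701 RPKM and at 522 against 740. The scaled differences thus also carry the change in these Paneth cell products, which were themselves selected for a difference between the groups. Why these products were lower was not tested. Leaving out each library gave 0.66 to 0.94 for Sec14l2, 0.66 to 0.93 for Sec14l4 and 0.49 to 0.61 for Patz1. Per kilobase of merged exons the median ratio of Sec14l2 to Patz1 would be 4.24, if all counted reads lay in exons. Of the 9 genes nearest in profile, 5 were also chosen by the distance of centred log2 values, which for Sec14l4 shared none of its 3. By that distance the listed gene nearest to Patz1 also lay on chromosome 11, 78.9 Mb after Sec14l2, and Fam161a came next. Of 77 genes at or above 0.5 mean RPKM, 28 (36.4%) were higher in KO with no overlap. No paired analysis was possible because no test was run and the labels do not tie the replicate numbers to pairs. Depth limits Sec14l4, which had at most 2 reads in any WT library.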

Other observations

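In 12 groups of 4 libraries (6 genes in WT and in KO), no library exceeded Dixon's 95% critical value. The closest were Sec14l4 in WT library 1, with a ratio of gap to range of 0.826 from 0 reads against 2 in each other WT library, and Sec14l4 in KO library 1, with 0.777.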
